A study of Homo sapiens with 8 samples.

Results

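The genes described here are 39 genes of the oxygen-sensing, hypoxia response and glycolysis pathways, taken from the 20219 gene symbols of the array table by their symbols. They were measured by 45 of the 29141 tested features, because BNIP3, VHL, P4HA2 and TPI1 had 2 features each and PGAM1 had 3. EGLN3 and STC1 lead the list for their values in these arrays, so these values are given as a description without a test. The other 37 genes, with 43 features, belong to the same pathways.

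Cells sense oxygen through the EGLN prolyl hydroxylases, which mark the alpha subunits HIF1A and EPAS1 for capture by the VHL ubiquitin ligase and for degradation. When oxygen is low the alpha subunits persist, pair with ARNT and bind DNA at a short element whose core reads ACGTG or GCGTG. Their targets include secreted factors, mitophagy genes, collagen-modifying enzymes, glucose transporters and the enzymes of glycolysis, and many breast carcinomas keep part of this program switched on. EGLN3 is both an oxygen sensor and a HIF target, and STC1 encodes a secreted glycoprotein hormone whose transcript is also a HIF target.

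RNA came from MIV-Luc cells, which are MCF10CA1a cells with a luciferase gene. MCF10CA1a is the metastatic end of the human MCF10A series of breast cell lines. The cells carried either the scrambled hairpin pLKO-shSCR (MIV-Luc-shSCR) or the hairpin pLKO-shIL13RA2 (MIV-Luc-shIL13Rα2#2), which targets IL13Rα2, a high-affinity receptor for the cytokine IL-13. Each line received IL-13 at 20 ng/ml over 16 h (+ IL-13) or a mock treatment (− IL-13), with 2 biological replicates and hence 2 arrays per group, 8 arrays in all. The knockdown rests on 1 hairpin. All groups grew in a medium with horse serum, insulin, EGF, hydrocortisone and cholera enterotoxin, and no group of the labels was kept at low oxygen. Arrays of a group are called A and B in the order of their columns, which carry no replicate number.

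The values are log2 expression after RMA, a method that corrects the background, equalizes the distributions of the arrays and summarizes the probes of a gene. The median of an array lay between 5.02 and 5.06, and arrays of a group correlated at r = 0.992 to 0.993 across features. The median SD between replicate arrays was 0.108 for the 45 features and 0.143 for all features. IL13RA2, the targeted gene, averaged 8.08 ± 0.01 (SD, n = 2) in mock-treated shSCR cells and 6.43 ± 0.13 in mock-treated knockdown cells. With IL-13 it averaged 9.35 ± 0.02 in shSCR cells and 8.19 ± 0.05 in knockdown cells, and treated knockdown cells differed from mock-treated shSCR cells by 0.11 (SE 0.11). The epithelial markers KRT5 (9.46 to 9.98) and EPCAM (10.61 to 12.12) were bright, and the basal keratin KRT14 (6.54 to 7.04) was lower. The luminal keratins KRT8 (9.81 to 10.41) and KRT18 (8.01 to 9.60 over both features) were bright too. The leukocyte marker PTPRC (2.27 to 2.71) and the hormone receptor ESR1 (3.76 to 4.40) were dim, whereas the endothelial marker PECAM1 read 7.71 to 8.82. The table holds no calls of detection.

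The annotation deposited with the table named the response to hypoxia for 15 of the 45 features and glycolysis for 15, against 0.539% and 0.202% of all features. Promoter letters were not used to choose the genes. The list holds known HIF targets, however, so an excess of the HIF core is partly built into it and is no independent support. RefSeq promoter windows of GRCh38.p14, which run from 250 bases before a gene's start to 50 after it, were given for 33 of the 39 genes in 53 windows. VHL, STC1, VEGFA, BNIP3L, NDRG1 and SLC2A3 were not among them. ACGTG or GCGTG occurred on either strand in 40 of the 53 windows (75.5%), against 48.4% of all 35116 windows. ACGTG alone occurred in 49.1% of the member windows and 21.4% of all windows, and without the palindrome CACGTG, which holds an ACGTG on each strand, either motif was left in 71.7% and 45.4%. By gene, 29 of the 33 (87.9%) had either motif, against 52.4% of the 27305 genes. The reference windows were not matched for base composition or for the number of windows per gene. A match is a string of letters and not a bound site.

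**Figure D1:**
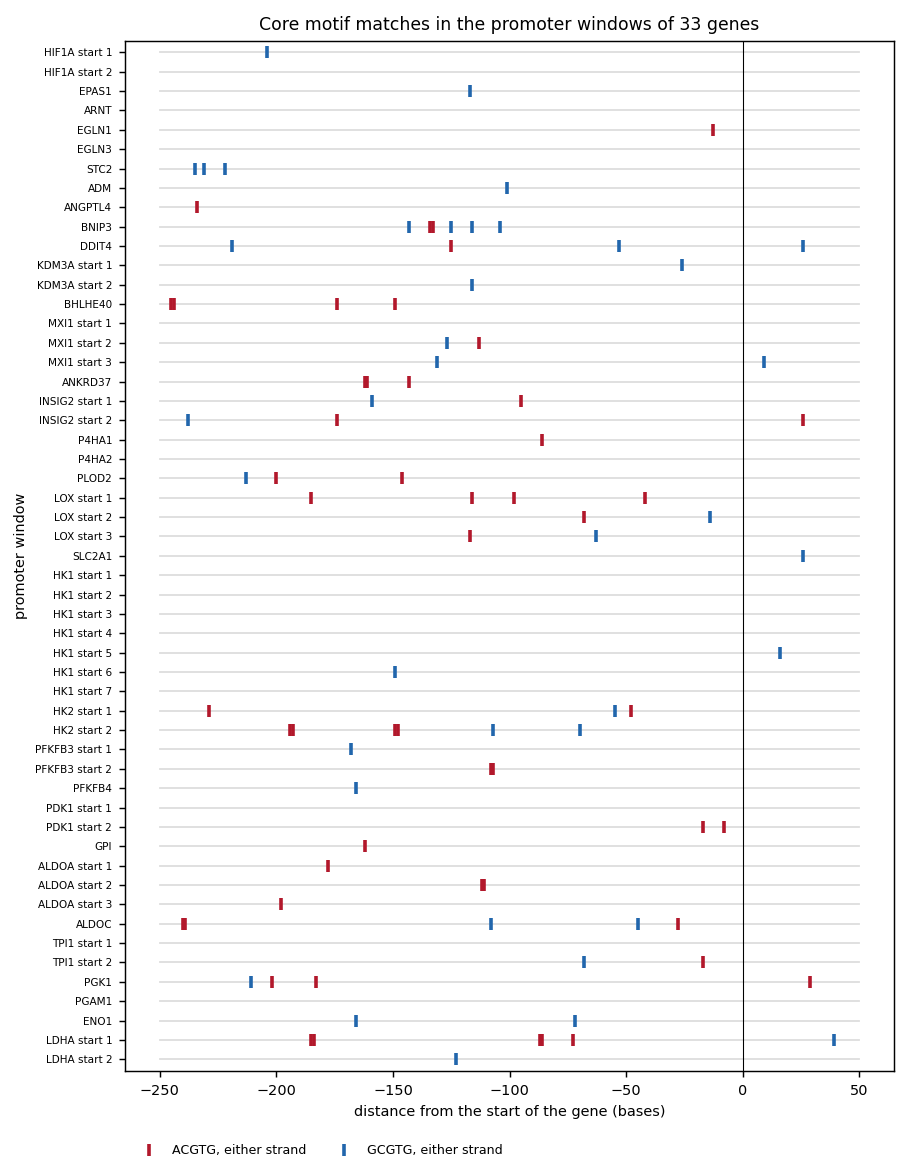
Positions of ACGTG (red) and GCGTG (blue) in the 53 promoter windows of 33 genes. The horizontal axis is the distance from the gene's start in bases, each grey line is a window, genes with several starts have several lines, and each mark is a match on either strand. Matches lie mostly before the start, BNIP3 has 6 of them in 1 window, and the EGLN3 window has none.

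The 5 stretches below show the 250 bases before the start of EGLN3 and of the BNIP3, ALDOC, PLOD2 and P4HA1 genes, which had the motifs and lower means in both IL-13-treated groups. They are printed 5′ to 3′ along the gene, with the motif letters of either strand in capitals, so that CACGT and CACGC are the reverse-strand readings of ACGTG and GCGTG.
EGLN3 (chr14:33951075-33951324, minus strand): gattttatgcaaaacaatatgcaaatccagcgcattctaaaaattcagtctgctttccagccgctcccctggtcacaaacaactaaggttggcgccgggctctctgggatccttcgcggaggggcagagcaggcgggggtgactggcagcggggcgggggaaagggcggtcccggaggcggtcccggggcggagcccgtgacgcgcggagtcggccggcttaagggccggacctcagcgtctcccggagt
BNIP3 (chr10:131981924-131982173, minus strand): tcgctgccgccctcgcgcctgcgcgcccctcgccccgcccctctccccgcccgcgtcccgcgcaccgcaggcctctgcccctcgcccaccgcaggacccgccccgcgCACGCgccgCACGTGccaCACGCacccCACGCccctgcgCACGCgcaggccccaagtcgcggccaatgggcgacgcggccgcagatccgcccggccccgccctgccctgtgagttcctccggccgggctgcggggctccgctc
ALDOC (chr17:28576896-28577145, minus strand): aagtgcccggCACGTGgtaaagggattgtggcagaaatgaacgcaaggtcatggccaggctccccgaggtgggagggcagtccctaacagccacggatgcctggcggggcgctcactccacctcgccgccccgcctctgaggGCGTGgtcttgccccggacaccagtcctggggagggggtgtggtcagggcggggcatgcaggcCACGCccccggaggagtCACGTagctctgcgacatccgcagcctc
PLOD2 (chr3:146161185-146161434, minus strand): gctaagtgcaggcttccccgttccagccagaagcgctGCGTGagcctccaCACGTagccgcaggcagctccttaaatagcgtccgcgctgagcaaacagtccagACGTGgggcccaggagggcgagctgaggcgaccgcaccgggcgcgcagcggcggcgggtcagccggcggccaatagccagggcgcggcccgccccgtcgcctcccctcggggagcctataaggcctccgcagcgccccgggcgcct
P4HA1 (chr10:73096867-73097116, minus strand): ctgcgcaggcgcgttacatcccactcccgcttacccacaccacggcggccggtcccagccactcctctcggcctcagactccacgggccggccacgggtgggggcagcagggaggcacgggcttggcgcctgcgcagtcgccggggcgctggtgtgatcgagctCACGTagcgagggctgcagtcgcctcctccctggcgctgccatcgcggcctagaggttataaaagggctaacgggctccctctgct
EGLN3 had 0 matches in this stretch, BNIP3 had 6, ALDOC had 5, PLOD2 had 3 and P4HA1 had 1. Whether the motifs went with the direction under IL-13 was not tested. The windows of LOX, which was higher with IL-13, held up to 4 matches, and those of HK1, also higher, 0 or 1. Those of LDHA, which differed by -0.01 in either line, held up to 6. ARNT, P4HA2 and PGAM1 had 0 like EGLN3. No match says only that these letters are missing from this window.

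The question for these genes was how their transcripts stood after IL-13 in each line and after the knockdown with and without IL-13. EGLN3, the prolyl hydroxylase that is itself induced by hypoxia, had the largest positive difference of the 45 features. It read 5.67 and 5.86 in MIV-Luc-shSCR (− IL-13), 6.08 and 6.22 in MIV-Luc-shSCR (+ IL-13), 5.79 and 5.73 in MIV-Luc-shIL13Rα2#2 (− IL-13) and 7.01 and 7.09 in MIV-Luc-shIL13Rα2#2 (+ IL-13). Both untreated groups thus overlapped, both treated groups lay above them, and the treated knockdown arrays were highest by a clear gap. The log2 difference with IL-13 was 0.38 (SE 0.12) in shSCR cells and 1.29 (SE 0.12) in knockdown cells, the latter a 2.45-fold increase. The knockdown itself made a difference of -0.01 without IL-13 and of 0.90 (SE 0.12) with it, and the interaction was 0.91 (SE 0.17).

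Apart from VHL, the other oxygen-sensing genes differed by no more than 0.31 in size in any pairwise comparison. EGLN1, the main oxygen sensor of most cells and the paralog of EGLN3, read 8.05 and 7.94 in mock-treated and 7.97 and 7.89 in IL-13-treated shSCR cells, and 7.76 and 8.03 in mock-treated and 7.90 and 7.87 in IL-13-treated knockdown cells. The groups overlapped, except that the treated knockdown arrays lay just below the mock-treated shSCR arrays. Its change with IL-13 in knockdown cells was lower than that of EGLN3 by a log2 difference of 1.30 (SE 0.17). HIF1A, the widely expressed alpha subunit, read 10.65 and 10.76, then 10.66 and 10.82 in the mock and IL-13 arrays of shSCR cells, and 10.94 and 10.90, then 10.90 and 10.78 in those of knockdown cells. Its mock-treated knockdown arrays lay above all shSCR arrays, by 0.22 (SE 0.11, limma adjusted p = 0.589) over the mock-treated ones. EPAS1, the second alpha subunit, read 7.16 and 7.03, then 7.22 and 7.35 in shSCR cells, and 7.19 and 7.42, then 7.43 and 7.38 in knockdown cells. The treated knockdown arrays of EPAS1 lay above the mock-treated shSCR arrays by 0.31 (SE 0.12, limma adjusted p = 0.473). ARNT, the partner subunit, read 7.56 and 7.60, then 7.41 and 7.41 in shSCR cells, and 7.47 and 7.70, then 7.46 and 7.33 in knockdown cells. Its 4 IL-13-treated arrays all lay below its 4 mock-treated arrays, although the nearest, 7.46 and 7.47, almost touched.

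VHL, which captures hydroxylated HIF, had the widest spread of the core genes other than EGLN3. Its brighter feature read 5.67 and 5.29, then 5.66 and 5.33 in shSCR cells, and 4.76 and 5.17, then 5.48 and 5.61 in knockdown cells. Its other feature read 5.38 and 5.63, then 5.44 and 5.21 in shSCR cells, and 5.11 and 5.03, then 5.48 and 5.61 in knockdown cells. On both features the mock-treated knockdown arrays were lowest. The brighter feature differed by -0.52 (SE 0.19, limma adjusted p = 0.474) with the knockdown without IL-13 and by 0.58 (SE 0.19, adjusted p = 0.625) with IL-13 in knockdown cells, and neither difference passed the test. Without mock-treated knockdown array A these differences were -0.31 and 0.37. Without mock-treated shSCR array A the first was -0.32.

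**Figure D2:**
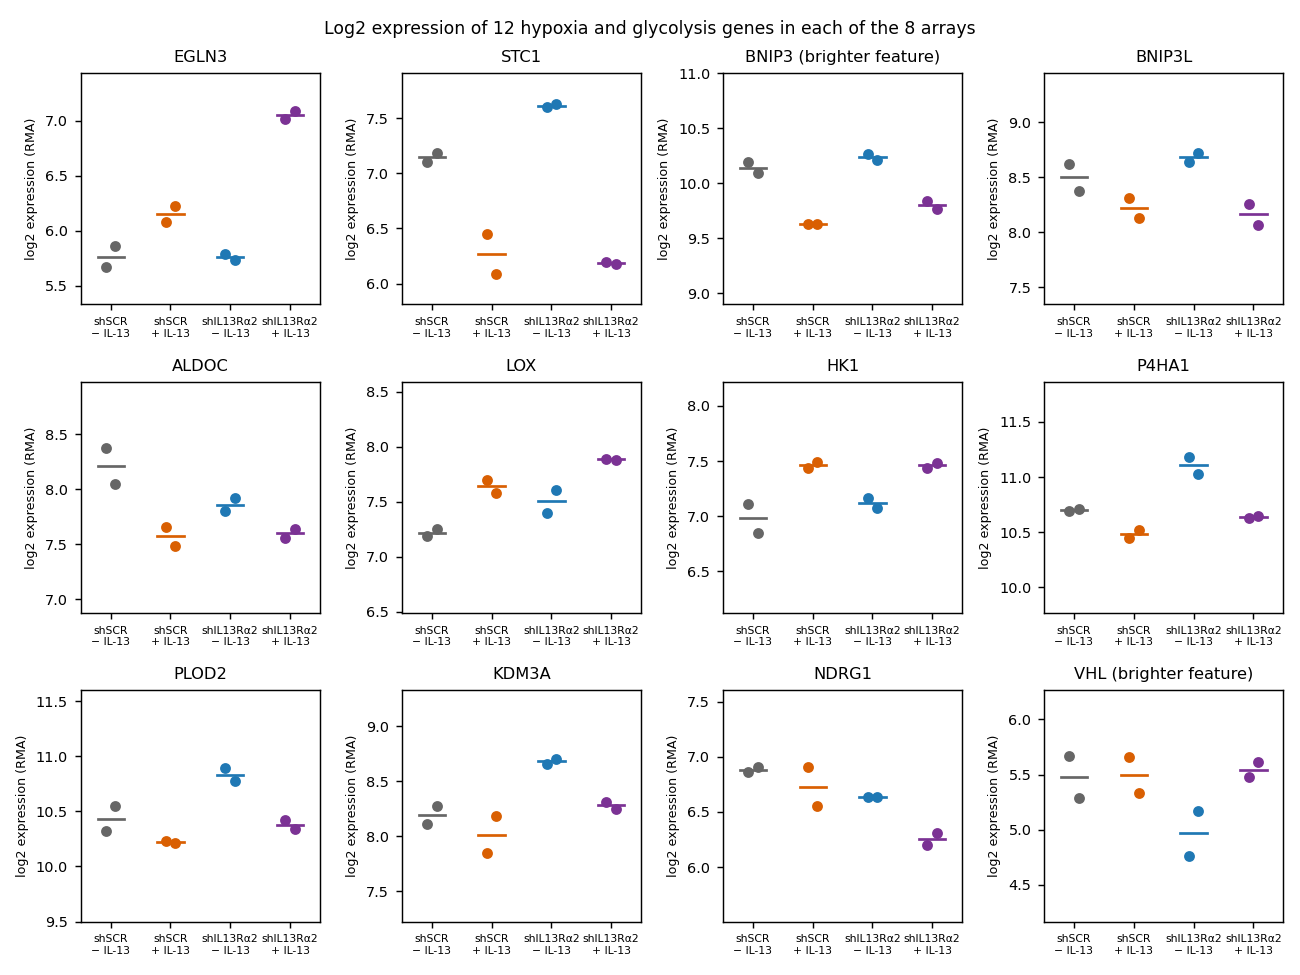
Log2 expression (RMA, vertical axes) of 12 genes in each of the 8 arrays. Points are arrays, horizontal bars are means of the 2 arrays of a group, and every panel has its own range. EGLN3 is highest in the treated knockdown arrays, and STC1 is low in the treated arrays of both lines. BNIP3, BNIP3L and ALDOC are lower in both treated groups than in their mock-treated groups.

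Among the secreted factors STC1 had the largest decrease with IL-13. It read 7.10 and 7.19 in mock-treated and 6.45 and 6.09 in IL-13-treated shSCR cells, and 7.60 and 7.63 in mock-treated and 6.20 and 6.18 in IL-13-treated knockdown cells. All 4 treated arrays lay below all 4 mock-treated arrays, and the mock-treated knockdown arrays were above the mock-treated shSCR arrays. The log2 difference with IL-13 was -0.88 (SE 0.14) in shSCR cells and -1.42 (SE 0.14) in knockdown cells, the latter a 2.68-fold decrease. The knockdown made a difference of 0.47 (SE 0.14) without IL-13 and of -0.08 with it, and the interaction was -0.55 (SE 0.19). STC1 and EGLN3, which were picked for their values, thus moved in opposite directions under IL-13. Both are HIF targets, and whether HIF had a part in their differences was not tested.

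STC2, the paralog of STC1, stayed between 5.07 and 5.44 and its groups overlapped. It read 5.12 and 5.33, then 5.07 and 5.36 in shSCR cells, and 5.20 and 5.44, then 5.32 and 5.32 in knockdown cells, and the change of STC1 with IL-13 in knockdown cells was below that of STC2 by 1.42 (SE 0.20). VEGFA, the main angiogenic growth factor, differed by 0.10 or less in each of the 5 pairwise comparisons. ADM, a vasodilator peptide, differed by -0.13 to 0.26. ANGPTL4, an inhibitor of lipoprotein lipase, was higher by 0.39 (SE 0.13, limma adjusted p = 0.624) with IL-13 in knockdown cells.

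The mitophagy receptors BNIP3 and BNIP3L, which tag mitochondria for removal, were lower with IL-13 in both lines. The brighter BNIP3 feature read 10.19 and 10.09 in mock-treated and 9.63 and 9.63 in IL-13-treated shSCR cells, and 10.27 and 10.21 in mock-treated and 9.84 and 9.77 in IL-13-treated knockdown cells. BNIP3L read 8.62 and 8.38, then 8.31 and 8.13 in shSCR cells, and 8.64 and 8.72, then 8.26 and 8.07 in knockdown cells. For both genes all 4 treated arrays lay below all 4 mock-treated arrays. Averaged over the 2 lines, BNIP3 differed by -0.47 (SE 0.07, 95% interval -0.64 to -0.30, limma adjusted p = 0.0677) and BNIP3L by -0.40 (SE 0.09, adjusted p = 0.262). Their changes differed from each other by only -0.07 (SE 0.12). The dim second BNIP3 feature, which read 3.61 to 4.13, differed by 0.08 in shSCR cells and by -0.38 in knockdown cells.

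NDRG1, a stress-induced growth regulator, read 6.86 and 6.91, then 6.91 and 6.55 in shSCR cells, and 6.64 and 6.64, then 6.20 and 6.31 in knockdown cells. The treated knockdown arrays were the lowest, below the mock-treated shSCR arrays by 0.62 (SE 0.14, limma adjusted p = 0.184). DDIT4, an inhibitor of mTOR signaling, lay between 8.14 and 8.36 in all arrays.

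Among transcription and chromatin regulators, KDM3A, a histone demethylase, stood out with the knockdown and not with IL-13 in shSCR cells. It read 8.11 and 8.27, then 7.85 and 8.18 in shSCR cells, and 8.66 and 8.70, then 8.31 and 8.25 in knockdown cells. Its mock-treated knockdown arrays were above all others, by 0.49 (SE 0.13, limma adjusted p = 0.352) over mock-treated shSCR cells. With IL-13 KDM3A differed by -0.40 (SE 0.13, limma adjusted p = 0.624) in knockdown cells and by -0.17 (SE 0.13) in shSCR cells. BHLHE40, MXI1 and ANKRD37 differed by no more than 0.15 in any pairwise comparison. INSIG2, which restrains sterol synthesis, was lower by 0.31 (SE 0.11, adjusted p = 0.413) in treated knockdown cells than in mock-treated shSCR cells.

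The collagen-modifying enzymes split. P4HA1, the catalytic subunit of collagen prolyl 4-hydroxylase, read 10.69 and 10.71, then 10.45 and 10.52 in shSCR cells, and 11.18 and 11.03, then 10.63 and 10.65 in knockdown cells. PLOD2, a collagen lysyl hydroxylase, read 10.32 and 10.55, then 10.23 and 10.21 in shSCR cells, and 10.89 and 10.78, then 10.42 and 10.34 in knockdown cells. Both were highest in the mock-treated knockdown cells, higher than in mock-treated shSCR cells by 0.41 (SE 0.11) and 0.40 (SE 0.12), and with IL-13 in knockdown cells they differed by -0.47 and -0.46. The limma adjusted p of these 4 differences was 0.325 or more.

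P4HA2, the paralog of P4HA1, did not share that pattern. Its brighter feature read 7.47 and 7.52, then 7.59 and 7.42 in shSCR cells, and 7.26 and 7.45, then 7.32 and 7.01 in knockdown cells. Over both treatments the effect of the knockdown on P4HA1 exceeded that on P4HA2 by 0.52 (SE 0.12), although the dim P4HA2 feature, at 4.39 to 5.11, differed in the other direction with IL-13 present (0.36, SE 0.20). LOX, which cross-links collagen, went the other way from P4HA1 and PLOD2 under IL-13. It read 7.19 and 7.25, then 7.70 and 7.58 in shSCR cells, and 7.40 and 7.61, then 7.89 and 7.88 in knockdown cells. Treated knockdown cells were highest, above mock-treated shSCR cells by 0.66 (SE 0.11, 95% interval 0.40 to 0.93, limma adjusted p = 0.0892).

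Of the genes for glucose entry and its control, HK1 had the largest mean difference with IL-13 over both lines. HK1, a hexokinase that traps glucose in the cell, read 7.11 and 6.85, then 7.44 and 7.49 in shSCR cells, and 7.16 and 7.07, then 7.44 and 7.48 in knockdown cells. All 4 treated arrays lay above all 4 mock-treated arrays, by a mean of 0.42 (SE 0.08, limma adjusted p = 0.178). HK2, the hexokinase that hypoxia raises, read 7.50 and 7.55, then 7.45 and 7.30 in shSCR cells, and 7.42 and 7.54, then 7.50 and 7.52 in knockdown cells. Its treated and untreated arrays overlapped over the 2 lines, and its change with IL-13 was below that of HK1 by 0.48 (SE 0.11).

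The glucose transporter SLC2A1 differed by -0.13 to 0.25 and PDK1, which diverts pyruvate from the mitochondria, by -0.17 to 0.19. PFKFB3, which makes the activator of phosphofructokinase, was higher by 0.43 (SE 0.13, limma adjusted p = 0.406) with the knockdown without IL-13, whereas its relative PFKFB4 stayed within 0.03 in every pairwise comparison. The transporter SLC2A3 was dim, at 3.21 to 3.90, and its differences had the large SE of 0.22.

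Among the enzymes of glycolysis ALDOC had the largest difference with IL-13 in shSCR cells, the dimmer TPI1 feature had it with IL-13 in knockdown cells, and ENO1 with the knockdown without IL-13. ALDOC, an aldolase isoform best known from brain, read 8.37 and 8.05, then 7.66 and 7.48 in shSCR cells, and 7.80 and 7.92, then 7.56 and 7.64 in knockdown cells. All 4 treated arrays lay below all 4 mock-treated arrays, and the difference was -0.64 (SE 0.14, limma adjusted p = 0.405) in shSCR cells and -0.26 (SE 0.14) in knockdown cells. ALDOA, the widely expressed aldolase, read 8.0 and 7.91, then 7.94 and 7.90 in shSCR cells, and 7.78 and 7.81, then 7.85 and 7.74 in knockdown cells, and it differed by -0.01 with IL-13 averaged over the lines. The change of ALDOC lay below that of ALDOA by 0.43 (SE 0.12) on that average.

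TPI1, triosephosphate isomerase, read 7.62 and 7.46, then 7.38 and 7.07 in shSCR cells, and 7.23 and 7.47, then 7.10 and 7.24 in knockdown cells on its brighter feature. Its dimmer feature read 6.91 and 7.29, then 6.89 and 6.97 in shSCR cells, and 6.53 and 7.28, then 6.62 and 6.37 in knockdown cells. Treated knockdown cells were lower than mock-treated shSCR cells on both, with differences of -0.37 (SE 0.15) and -0.60 (SE 0.24, limma adjusted p = 0.492). ENO1, enolase, was lower with the knockdown, with differences of -0.37 (SE 0.16) without and -0.39 (SE 0.16) with IL-13. LDHA, which turns pyruvate to lactate, was the brightest of the 45 features and stayed between 12.61 and 12.74. GPI and PGK1 differed by no more than 0.21 in size, and the 3 PGAM1 features, which share 1 accession and near-identical values, by -0.21 to 0.03.

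A feature was called when its limma p, adjusted over all 29141 features by Benjamini-Hochberg, was under 0.05 and its fold change was above 2. With IL-13 in shSCR cells 0 of the 45 features passed, against 0.0583% of all features. With IL-13 in knockdown cells 0 of the 43 features other than EGLN3 and STC1 passed, against 0.0618% of all, and these 2 genes lay past the thresholds, as their choice fixed. Averaged over both lines 0 of the other 43 passed, against 0.0927% of all, and STC1 lay past the thresholds by the same choice. With the fold change ignored, the other 43 features still gave 0 calls by limma in shSCR cells (against 0.0618% of all), in knockdown cells (against 0.0618%) and in the average (against 0.233%). At an unadjusted p under 0.05 the average gave 3 features that were higher (ANGPTL4, HK1 and LOX, against 4.88% of all features) and 8 that were lower (ALDOC, BNIP3, BNIP3L, KDM3A, NDRG1, P4HA1, PLOD2 and TPI1, against 3.85%). In shSCR cells alone there were 2 higher (HK1 and LOX, against 3.64%) and 2 lower (ALDOC and BNIP3, against 3.15%). In knockdown cells there were 5 higher (ANGPTL4, HK1, LOX and both VHL features, against 3.96%) and 6 lower (BNIP3, BNIP3L, KDM3A, NDRG1, P4HA1 and PLOD2, against 2.97%).

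Calls depended on how the variance was modelled. In a setting chosen after seeing the data, limma's prior followed the intensity and was fitted robustly, without a fold threshold. For IL-13 averaged over both lines, 7 of the 37 genes other than EGLN3 and STC1 then passed, against 0.872% of all features. They were HK1 and LOX, which were higher, and ALDOC, BNIP3, BNIP3L, P4HA1 and PLOD2, which were lower. EGLN3 and STC1 lay past the adjusted p limit too, as their choice fixed. BNIP3 had the smallest adjusted p of the 7 there, 0.000351, and its adjusted p ran from 0.000351 to 0.281 over 11 alternatives in all, with the same sign in each. The same setting called BNIP3 beside STC1 in shSCR cells (against 0.295% of all features). In knockdown cells it called BNIP3, P4HA1 and PLOD2 beside EGLN3 and STC1 (against 0.384%).

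The IL-13 comparisons of the 2 lines have no array in common. Of the 43 features other than EGLN3 and STC1, 27 had the same sign in both (62.8%), against 55% of all features. Lower with IL-13 in both lines were 21 of the 43 (48.8%), against 25.3% of all, and 6 were higher in both (14%), against 29.7%. The 21 count all PGAM1 features, which share an accession and near-identical values, and both TPI1 features separately. Across the 43 Pearson's r between the lines was 0.50 and Spearman's rho was 0.47. With EGLN3 and STC1, which were picked for their values, r was 0.70 and rho was 0.54, a rise that this choice built in. Across all 29141 features r was 0.21 and rho was 0.15, and features are not independent replicates. The median difference of the 45 features was -0.072 in shSCR cells and -0.081 in knockdown cells, against 0.002 and 0.016 for all features. It was -0.114 in shSCR cells without mock-treated array A, and -0.124 without mock-treated array A or -0.015 without treated array B in knockdown cells. Of the 43 features, 5 (ALDOC, ARNT, BNIP3, BNIP3L and P4HA1) had all 4 treated arrays below all 4 mock-treated arrays, against 1.93% of all. For HK1 alone they lay above them (against 2.85%). Within shSCR cells both treated arrays lay below both mock-treated arrays for 15 of the 43, of 13 genes (against 18.1% of all). They lay above them for 3 (against 18.6%). Within knockdown cells this was so for 14 lower features, of 13 genes (against 16.3%), and 6 higher ones (against 21%).

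**Figure D3:**
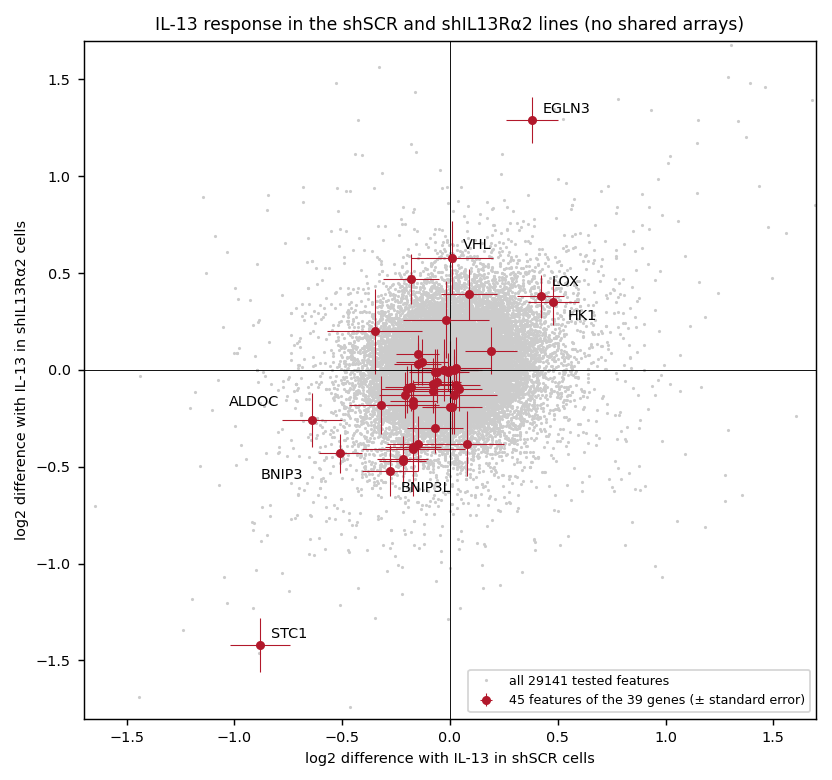
Log2 difference with IL-13 in shSCR cells (horizontal axis) and in shIL13Rα2#2 cells (vertical axis). Grey dots are all tested features, of which 7 lie outside the plotted range, and red points are the 45 features with standard errors. STC1 is low and EGLN3 high on both axes, and the points of BNIP3L, ALDOC and the brighter BNIP3 feature lie below 0 on both.

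The knockdown comparisons without and with IL-13 also have no array in common. Of the 43 features other than EGLN3 and STC1, 27 had the same sign in both (62.8%), the share these 43 also had for IL-13, against 57.4% of all features. Across the 43, Pearson's r was 0.41 and Spearman's rho was 0.46, and across all features they were 0.24 and 0.21. Without IL-13, 0 of the 45 features passed adjusted p and fold change, against 0.0652% of all features, and with IL-13 again 0 did, against 0.0515%. On the adjusted p alone limma still called 0 in either comparison, against 0.0686% and 0.0549% of all. Without IL-13, 5 of the 43 features other than EGLN3 and STC1 were higher at an unadjusted p under 0.05 (KDM3A, LOX, P4HA1, PFKFB3 and PLOD2, against 4.28% of all) and 3 were lower (ALDOC and both VHL features, against 5.23%). With IL-13, 0 were higher (against 3.44%) and 3 were lower (ENO1, NDRG1 and P4HA2, against 3.63%). The median difference was -0.006 without and 0.030 with IL-13, against -0.014 and 0.002 for all features. Of the 43, arrays of the 2 lines did not overlap for 13 higher (against 18.7% of all) and 11 lower features (against 22.4%) without IL-13. With IL-13 this was so for 17 higher (against 18.3%) and 7 lower features (against 18.1%). Averaged over both treatments 0 features passed (against 0.0755%), also on the adjusted p alone (against 0.446%). There 6 were higher (KDM3A, LOX, P4HA1, PDK1, PFKFB3 and PLOD2, against 5.31%) and 4 lower (ENO1, INSIG2, NDRG1 and P4HA2, against 6.03%) at an unadjusted p under 0.05. All 4 knockdown arrays lay above all 4 shSCR arrays for LDHA (against 3.26% of all) and below them for ALDOA, ENO1 and INSIG2 (against 3.87%). With the intensity-dependent robust prior and no fold threshold, KDM3A (adjusted p = 0.0281), P4HA1 (0.00767) and PLOD2 (0.0264) passed on that average beside EGLN3, against 2.25% of all features. Over 11 alternatives the adjusted p of these 3 genes reached 0.453, 0.489 and 0.547. That setting also called P4HA1 and PLOD2 for the knockdown without IL-13 (against 0.899% of all) and EGLN3 with IL-13 (against 0.484%). A luminal keratin moved with the knockdown in the same arrays. The brighter KRT18 feature read 9.60 and 9.32, then 9.41 and 9.34 in shSCR cells, and 8.75 and 8.90, then 8.77 and 8.86 in knockdown cells, with an averaged difference of -0.60 (SE 0.09, limma adjusted p = 0.0454). Its other feature differed by -0.30 (SE 0.10), the luminal keratin KRT8 by -0.27 (SE 0.12) and the dim luminal markers ESR1 and PGR by -0.06 to 0.03, none of which passed. Their part in the differences of the 39 genes was not tested.

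Treated knockdown cells were also compared with mock-treated shSCR cells, a comparison that shares its arrays with those above. The thresholds were passed by 0.154% of all features, or 0.285% on the adjusted p alone. EGLN3 lay past both and STC1 past the second, which describes how they were picked and is no test. None of the other 43 passed in limma on either criterion. At an unadjusted p under 0.05, 3 of these 43 were higher (EPAS1, HK1 and LOX, against 4.79%) and 8 lower (ALDOC, BNIP3, BNIP3L, INSIG2, NDRG1, P4HA2 and both TPI1 features, against 4.78%). The median difference was -0.033, against 0.006 for all features. Among the 43 other features, arrays did not overlap for 7 higher (against 20.7% of all) and 16 lower ones (against 19.6%). With the intensity-dependent robust prior and no fold threshold, ALDOC, BNIP3, LOX and NDRG1 passed beside EGLN3 and STC1, against 1.45% of all features. For the interaction of knockdown and IL-13, tested on the adjusted p alone, 0 of 29141 features and so 0 of the 45 passed in limma, and the smallest adjusted p among them was 0.989. At an unadjusted p under 0.05 a VHL feature (0.65, SE 0.19) was the only higher one among the other 43 (against 2.44% of all features), and 0 were lower (against 2.03%).

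**Figure D4:**
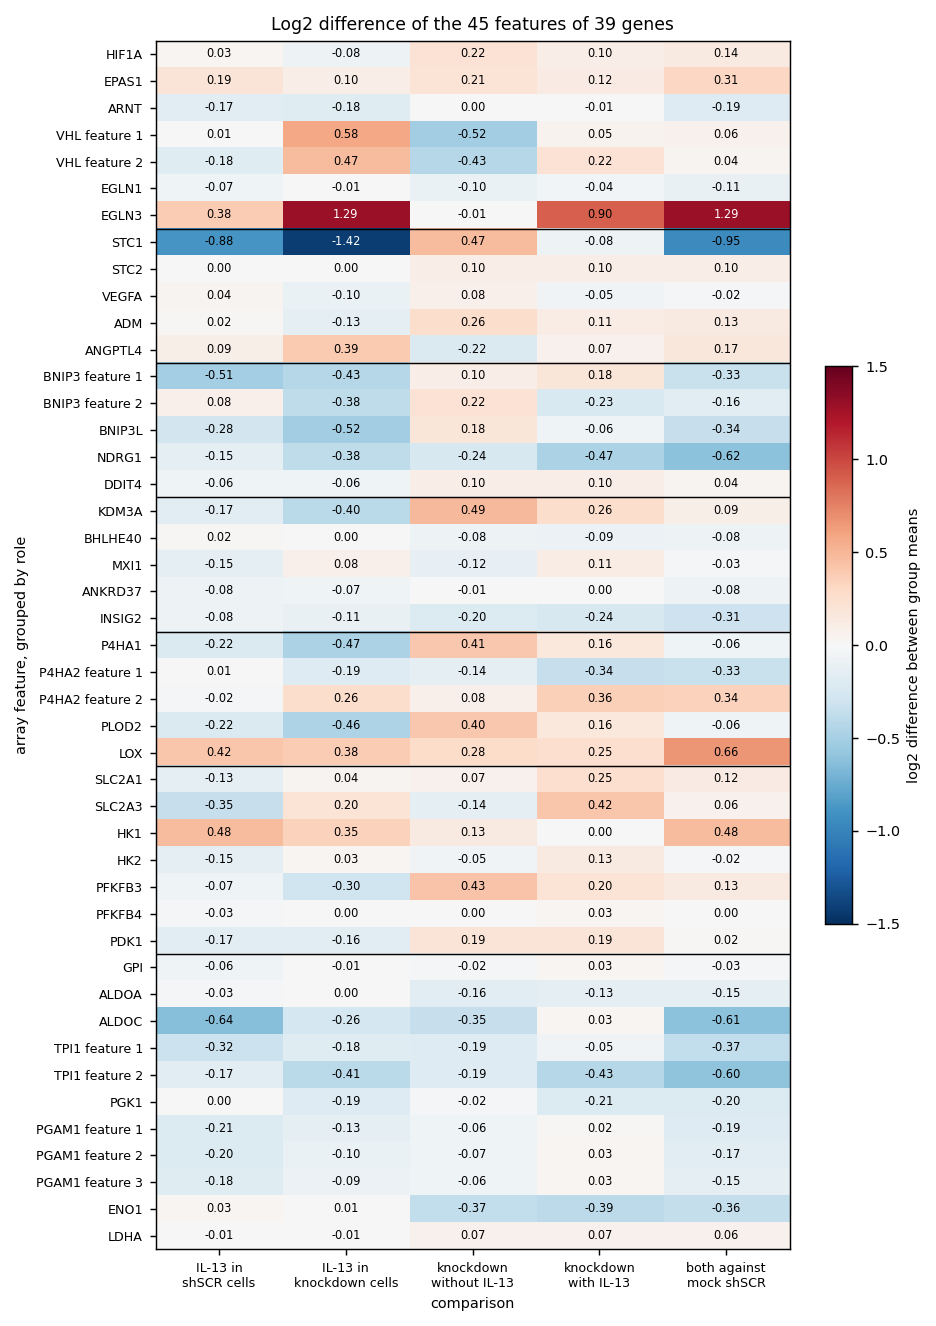
Log2 difference of group means for the 45 features (rows, grouped by role) in 5 comparisons (columns). Red is higher and blue is lower, and each cell prints its value. The EGLN3 and STC1 rows hold the extremes, 1.29 and -1.42, and most other cells are within 0.5 of 0.

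A further 68 genes of the same pathways with 73 features, among them HIF cofactors, the other glycolytic isoenzymes and other hypoxia-induced genes, gave a reference for the 39. Of these, TMEM45A, a transmembrane protein gene induced by hypoxia, was the only one called, and it was already known to be called in shSCR cells when the list was written. It read 7.91 and 7.80, then 6.78 and 6.53 in shSCR cells, and 7.94 and 8.01, then 6.90 and 6.70 in knockdown cells. It fell by 1.20 (SE 0.13, limma adjusted p = 0.0344) with IL-13 in shSCR cells and by 1.18 (SE 0.13, adjusted p = 0.0358) in knockdown cells. STC1 went in the same direction, with differences of -0.88 in shSCR cells and -1.42 in knockdown cells. With IL-13 averaged over both lines, 2 of the 73 features were higher (2.74%, against 4.88% of all features) and 7 were lower (9.59%, against 3.85%, TMEM45A among them) at an unadjusted p under 0.05. The median difference of the 73 was -0.031, against -0.061 for the 45. EDN1, the vasoconstrictor endothelin, was higher by 0.81 (SE 0.14, adjusted p = 0.149) with the knockdown without IL-13. VLDLR, a lipoprotein receptor, was higher by 0.62 (SE 0.15, adjusted p = 0.294) there on its brighter feature and lower on its other feature, with a difference of -0.14.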

How the data were processed

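Total RNA of 4 groups of MIV-Luc cells, with 2 biological replicates each, was hybridized to Affymetrix arrays. The authors normalized the arrays in Affymetrix Expression Console and deposited log2 values per gene-level feature, which per the file headers were made with RMA. Normalization of this kind removes differences in overall level between arrays. No further normalization or filter was applied. Of 33297 features, 4156 controls were left out and 29141 were tested, 7064 of them without a symbol. The construct and treatment in a column's heading gave its group.

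Group means were fitted to all 8 arrays with limma (version 3.58.1; R, version 4.3.3) (4 residual and 3.86 prior degrees of freedom), so that the groups shared 1 estimate of the spread, and p-values were adjusted over all features. Intervals are 95% intervals of that fit. The fitting was tested on simulated data. Members and lists were chosen with earlier results of these data known. Values per array are given for EGLN3, STC1, the pathway core, members with a log2 difference of at least 0.5 in a pairwise comparison (0.58 for treated knockdown against mock shSCR cells), their paralogs and, beyond that rule, KDM3A, P4HA1, P4HA2, PLOD2, HK1 and HK2, chosen after their values were seen. For several features of a gene, the brighter is named first. The number of arrays limits the precision. Promoter windows were read from the RefSeq table of GRCh38.p14, and no genome coordinates of array features were used. Alternatives were the adjustment, the fold threshold, a filter on the dimmest 30%, shifted or re-quantiled arrays, an intensity trend with robust prior, 1 feature per gene, fewer arrays, the one-way analysis of variance of the methods and leaving out each array.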

Additional observations from a re-analysis of the deposited data

How the results depend on the processing

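The number of the 39 genes called was recomputed under each alternative, and no alternative reversed the sign of a named gene's difference. With an unadjusted p under 0.05, 3 genes (EGLN3, STC1 and VHL) passed for the interaction in place of 0. At that cut 2.44% of all features were higher and 2.03% were lower, and EGLN3 and STC1 were picked for their values. With a 1.5-fold threshold or with none, 2 genes (EGLN3 and STC1) passed in treated knockdown against mock-treated shSCR cells and for IL-13 averaged over both lines, in place of 1 each. Both were picked for their values. With no threshold 0.285% and 0.233% of all features passed in these comparisons. On the 4 arrays compared, limma called 0 for IL-13 in knockdown cells and 0 for treated knockdown against mock-treated shSCR cells, and the methods' test with adjustment also called 0 and 0, against 2 and 1 without it. Chosen after seeing the data, the intensity trend and robust prior with no fold threshold called 2 genes for IL-13 in shSCR cells, 2 for the knockdown without IL-13, 1 for the knockdown with IL-13, 5 for IL-13 in knockdown cells, 6 for treated knockdown against mock-treated shSCR cells, 9 for IL-13 averaged and 4 for the knockdown averaged. These counts include EGLN3, STC1 or both, except for the knockdown without IL-13, and the shares of all features are given above. For the 1.5-fold threshold, the fits on the 4 arrays compared and the methods' test, the share over all features is not reported here.

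Leaving out each array in turn, IL-13 in knockdown cells called 0 to 2 genes (0 without any of the 4 arrays compared, 1 without either mock-treated shSCR array), and treated knockdown against mock-treated shSCR cells called 0 to 1 (0 without any of the 4 arrays compared). The other counts kept their value. The EGLN3 difference with IL-13 in knockdown cells then ran from 1.25 to 1.33 and that of STC1 from -1.44 to -1.41. The median difference of the 45 features ran from -0.114 to -0.065 for IL-13 in shSCR cells (lowest without mock-treated shSCR array A) and from -0.124 (without mock-treated knockdown array A) to -0.015 (without IL-13-treated knockdown array B) in knockdown cells. It crossed 0 for the knockdown without IL-13 (-0.026 to 0.051), with IL-13 (-0.012 to 0.097) and averaged (-0.022 to 0.044) and for the interaction (-0.038 to 0.044), where it was near 0 with all arrays. A further quantile normalization turned the first of these to 0.017 and the interaction to -0.007, and shifting the arrays to one median turned the interaction to -0.008. It ran from -0.059 to -0.033 for treated knockdown against mock-treated shSCR cells and from -0.084 to -0.038 for IL-13 averaged.

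No paired analysis was possible because the column headings carry no replicate numbers. The methods' test and the fit on fewer arrays were not run for the averages and the interaction.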

Other observations

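Over all tested features with a symbol, those whose pattern over the 8 arrays was most like that of STC1 were GABRP (Pearson's r = 0.971), MTHFD1L (0.966) and TMEM45A (0.963), and those most like EGLN3 were EID3 (0.967), DAB1 (0.960) and PRB1 (0.947). These values describe 8 arrays in 4 groups and carry no test. EID3 read only 5.65 to 6.24 over the arrays, PRB1 5.93 to 6.29 and DAB1 3.81 to 4.17. DAB1 has 3 features and MTHFD1L has 5, and the feature with the highest correlation was taken.

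PECAM1, an adhesion molecule best known from endothelium, read 8.33 and 8.08 in mock-treated and 7.71 and 7.83 in IL-13-treated shSCR cells, and 8.82 and 8.82 in mock-treated and 8.14 and 8.27 in IL-13-treated knockdown cells. It was lower with IL-13 averaged over both lines by a log2 difference of -0.52 (SE 0.09, limma adjusted p = 0.0938) and higher with the knockdown by 0.52 (SE 0.09, adjusted p = 0.0615), and neither passed the test. CDH5, the other endothelial marker, was dim at 4.40 to 4.83.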
